A study of Schizosaccharomyces pombe with 12 samples.

Results

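The genes described here are gsf2 and pfl2 to pfl9, the flocculin and related cell surface glycoprotein genes of the fission yeast Schizosaccharomyces pombe. They are 9 of the 6936 genes measured, taken by gene name. The family was chosen by fold changes already seen in these data, in which pfl8 and pfl9 were lower in both knockouts and in the h- wild type (wt_WT) than in the h+ wild type (ntu_WT). Comparisons against ntu_WT are therefore given as a description of these genes, with no test.

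Flocculins are glycoproteins anchored in the outer cell wall that hold yeast cells together by binding sugars on the surface of neighbouring cells. In S. pombe, Gsf2 is the main flocculin and binds galactose residues of the cell wall, and the Pfl proteins were named as flocculins or flocculin-like proteins from their structure. Laboratory strains do not flocculate in rich medium, and the MADS box factor Mbx2 activates flocculin genes while the factor Rfl1 represses them.

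The series asks how poly(A)-selected RNA differs between wild-type cells and cells that lack ntu1 or ntu2, in 4 groups of 3 libraries from exponential cultures in rich medium (YES). The RefSeq annotation calls Ntu2 a transcription factor tethered to a membrane and Ntu1 a regulatory protein. ntu1_KO has the mating type h+ and carries ntu1D::kanMX with the alleles ade6-M216, ura4-D18 and leu1-32. ntu2_KO is likewise h+ and carries ntu2D::kanMX with ade6-M216, ura4-D18 and leu1-32. wt_WT is the h- wild type, with leu1-32, ura4-D18 and ade6-704. ntu_WT is the h+ wild type, with leu1-32, ura4-D18 and ade6-M210. All 4 groups thus share leu1-32 and ura4-D18, both knockouts have an ade6 allele that neither wild type has, and the labels give the 2 wild types 1 strain name. Each knockout is 1 named strain, and the labels do not say that the 3 libraries of a group came from separate cultures, so the spread between them may be technical.

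Library totals ran from 3177147 to 11782294 estimated counts, and the 3 wt_WT libraries were the deepest. ntu1 had 9.22 to 12.3 counts per 1000000 counts (CPM, scaled by the TMM method) in ntu1_KO and at least 84.3 CPM in every other library. ntu2 had 37.7 to 52.5 CPM in ntu2_KO and at least 202.8 CPM elsewhere. The h+ gene mat2-Pc had 21 to 110 counts in the h+ libraries and 0 in wt_WT. The h- gene mat1-Mc had 457 to 505 counts in wt_WT, 0 in both knockouts, and 9 in 1 ntu_WT library. Of the other mating-type genes checked, the h- gene mfm2 averaged 25.2 CPM in wt_WT and 1.31 to 2.34 CPM in the h+ groups. The rest did not separate the groups by mating type. The h- gene mam3 averaged 47.7 CPM in wt_WT and 53.4 to 54.1 CPM in the h+ groups. The h+ gene map2 averaged 4.16 CPM in wt_WT and 2.90 to 4.99 CPM in the h+ groups, and map4 likewise lay between. mfm1 and mfm3, both h- genes, averaged at most 0.645 CPM in any group. ntu_WT thus stood apart from ntu1_KO and ntu2_KO by the deletion and by the ade6 allele, and these 2 differences cannot be told apart in the comparisons of a knockout with ntu_WT.

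Levels between genes are given in transcripts per 1000000 transcripts (TPM), which the authors corrected for transcript length. pfl2 was the most abundant in each group, at group means of 336 TPM in ntu1_KO, 361 in ntu2_KO, 389.55 in wt_WT and 291.5 TPM in ntu_WT. pfl8 came next in every group and pfl6 last, with 0.545 to 1.27 TPM. The order between them differed by group. pfl9 ranked 8 of 9 at 4.66 to 5.35 TPM in ntu1_KO, ntu2_KO and wt_WT, and 5 of 9 at 13.6 TPM in ntu_WT. pfl3 ranked 5 in ntu1_KO, 4 in ntu2_KO, and 3 in wt_WT and in ntu_WT. Averaged over all 12 libraries pfl4 and pfl3 were nearly level, but pfl4 exceeded pfl3 in all 6 knockout libraries and pfl3 exceeded pfl4 in all 6 wild-type libraries. pfl9 exceeded pfl5 in 3 of 3 ntu_WT libraries, and in 1 of 3 of ntu1_KO, 1 of 3 of ntu2_KO and 0 of 3 of wt_WT. The lengths implied by the deposited counts and TPM differ from the annotated transcripts of assembly ASM294v3 by 99% for pfl7, 33% for pfl3 and 30% for pfl5. For gsf2, pfl2, pfl4, pfl8 and pfl9 they differ by 5.2% to 12%. Such gaps were common, as 25.7% of 4616 genes compared had an implied length within 5% of the annotation. The order among the members thus also depends on the lengths used. In bulk RNA such as this, fewer cells with a transcript and less of it in each cell cannot be told apart.

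The most abundant member, pfl2 (SPAPB15E9.01c, chromosome I), lay above 93.3% of the genes in the table in ntu1_KO, 93.7% in ntu2_KO, 93.9% in wt_WT and 92.3% in ntu_WT. It had 332, 342 and 333.3 TPM in ntu1_KO, 391, 384 and 307 TPM in ntu2_KO, 383, 388 and 398 TPM in wt_WT, and 312, 285 and 277 TPM in ntu_WT. The wt_WT libraries were all above the ntu_WT libraries, and replicate 3 of ntu2_KO was the lowest of its group and below replicate 1 of ntu_WT. Against ntu_WT, the log2 fold change was 0.17 ± 0.07 in ntu1_KO, 0.25 ± 0.07 in ntu2_KO and 0.31 ± 0.06 in wt_WT (standard error, SE, of the edgeR fit). Against wt_WT, pfl2 did not pass the test in ntu1_KO (log2 fold change -0.14, 95% interval -0.27 to -0.01; edgeR adjusted p = 0.199) or in ntu2_KO (-0.06, interval -0.19 to 0.07; edgeR adjusted p = 0.665).

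The gene of the main flocculin, gsf2 (SPCC1742.01, chromosome III), was expressed at a low and narrow level. It had 8.79, 8.18 and 8.67 TPM in ntu1_KO, 10.3, 10.3 and 8.34 TPM in ntu2_KO, 9.89, 10.3 and 11.5 TPM in wt_WT, and 12.15, 10.3 and 10.4 TPM in ntu_WT. All 3 ntu1_KO libraries were below all libraries of both wild types. Its group means exceeded only 27.0% to 29.9% of the genes in the table. The log2 fold change against ntu_WT was -0.38 ± 0.09 in ntu1_KO, -0.22 ± 0.09 in ntu2_KO and -0.14 ± 0.08 in wt_WT. Against wt_WT it was -0.24 in ntu1_KO (95% interval -0.42 to -0.06; edgeR adjusted p = 0.118) and -0.08 in ntu2_KO (interval -0.26 to 0.11; edgeR adjusted p = 0.711), neither of which passed.

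**Figure D1:**
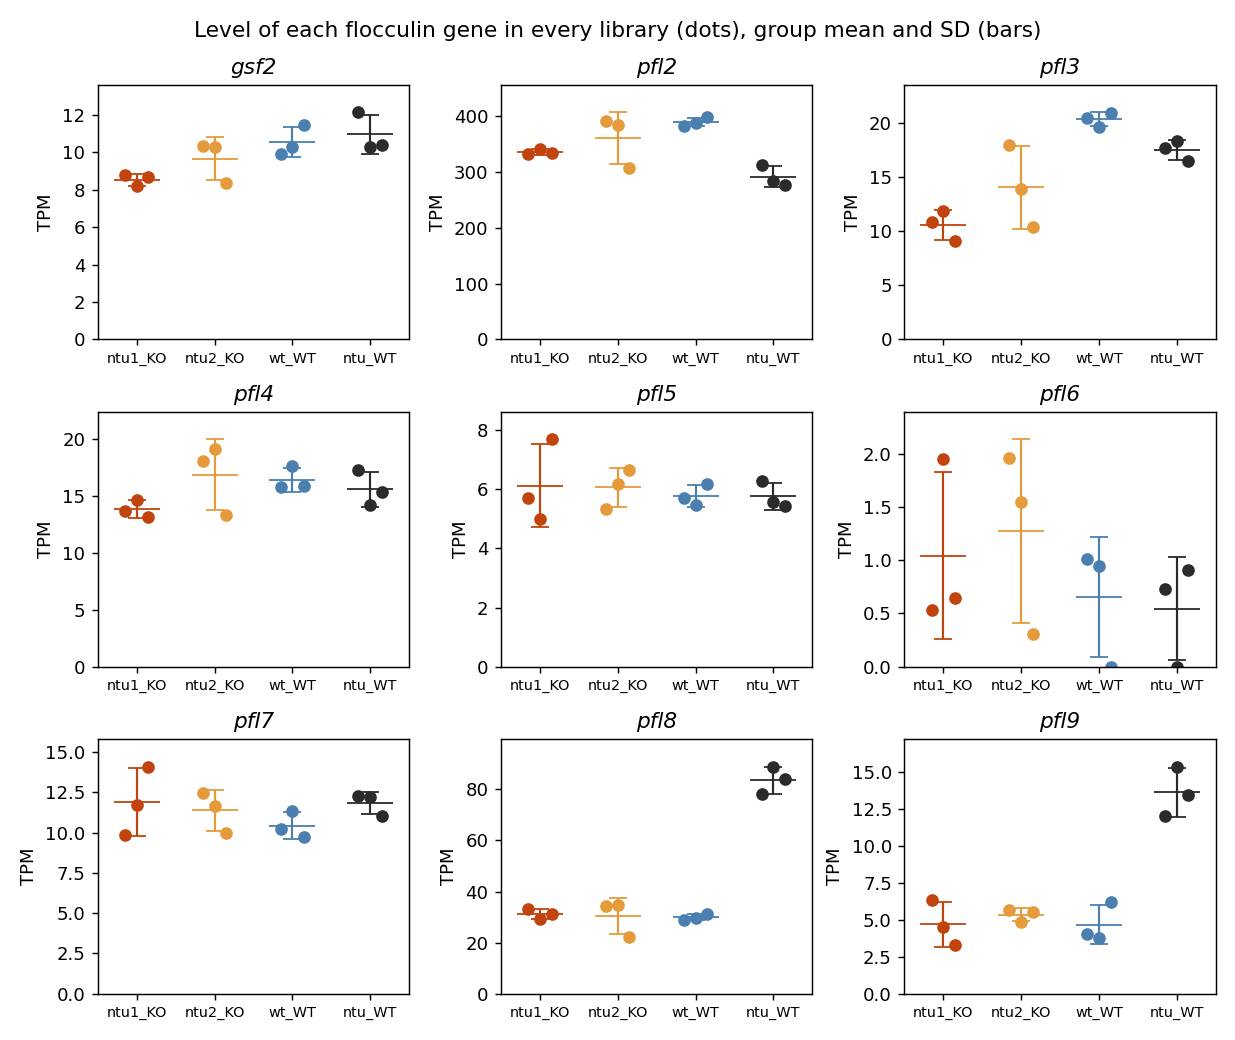
Level of each of the 9 genes in TPM (linear axis from 0, a separate scale for each gene) in the 3 libraries of ntu1_KO, ntu2_KO, wt_WT and ntu_WT; dots are libraries, and bars are the group mean and SD. The ntu_WT dots of pfl8 (78.1 to 88.7 TPM) and pfl9 (12.05 to 15.4 TPM) lie above the dots of the other 3 groups, and the wt_WT dots of pfl3 lie at 19.6 to 20.9 TPM.

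pfl8 (SPAC1F8.06, also named fta5, chromosome I) encodes a predicted cell surface glycoprotein and showed the widest absolute range after pfl2. It had 33.2, 29.4 and 31.4 TPM in ntu1_KO, 34.4, 34.7 and 22.1 TPM in ntu2_KO, 29.0, 29.7 and 31.3 TPM in wt_WT, and 78.1, 88.7 and 84.1 TPM in ntu_WT. The lowest ntu_WT library was more than 2 times the highest of the other 9 libraries, and the other 3 groups overlapped one another. In rank, pfl8 exceeded 49.9% of the genes in ntu1_KO, 48.8% in ntu2_KO, 47.3% in wt_WT and 76.1% in ntu_WT. Relative to ntu_WT, pfl8 was 2.74-fold lower in ntu1_KO (log2 fold change -1.45 ± 0.12, SE), 2.87-fold lower in ntu2_KO (-1.52 ± 0.13) and 2.99-fold lower in wt_WT (-1.58 ± 0.11).

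pfl9 (SPAC186.01, chromosome I) encodes a glycoprotein of the DIPSY family, whose shared domain is also found in S. pombe mating agglutinins. It had 6.31, 4.48 and 3.29 TPM in ntu1_KO, 5.66, 4.86 and 5.54 TPM in ntu2_KO, 4.04, 3.78 and 6.18 TPM in wt_WT, and 12.05, 15.4 and 13.5 TPM in ntu_WT. As with pfl8, the 3 ntu_WT libraries were above the other 9, among which the groups overlapped. Relative to ntu_WT, pfl9 was 2.89-fold lower in ntu1_KO (log2 fold change -1.53 ± 0.22, SE), 2.59-fold lower in ntu2_KO (-1.37 ± 0.23) and 3.10-fold lower in wt_WT (-1.63 ± 0.22). In ntu2_KO the value was -1.46 to -1.20 over the alternative settings.

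Of the 9 members, pfl8 and pfl9 were the 2 that met the call rule used for all genes (adjusted p under 0.05 and at least 2-fold) in each comparison with ntu_WT, in which 0.224% of all genes tested were called for ntu1_KO, 0.155% for ntu2_KO and 1.03% for wt_WT. The family was chosen for this difference and the 3 comparisons share the ntu_WT libraries, so this count is no test of the members and nothing is read from it. Members whose 3 libraries were all below those of ntu_WT in CPM numbered 4 in ntu1_KO (pfl9, pfl8, pfl3 and gsf2, beside 7.13% of all genes), 3 in ntu2_KO (pfl9, pfl8 and gsf2, beside 6.51%) and 3 in wt_WT (pfl9, pfl8 and pfl7, beside 17.3%). In the other direction pfl2 lay wholly above ntu_WT in ntu1_KO, beside 6.82% of all genes, and pfl2 and pfl3 in wt_WT, beside 18% of all genes. CPM of all 3 ntu_WT libraries were above the other 9 libraries for 85 of 5899 genes, or 1.44%, and these included pfl8 and pfl9 and no other member.

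In the contrasts without ntu_WT, no difference in pfl8 or pfl9 passed the test. For the first knockout, pfl8 averaged 36.9 ± 2.48 CPM in ntu1_KO and 33.7 ± 1.72 CPM in wt_WT (SD, n = 3 each), a log2 fold change of 0.12 with a 95% interval of -0.12 to 0.37 (edgeR adjusted p = 0.578). For the other, pfl8 averaged 35.5 ± 7.63 CPM in ntu2_KO and 33.7 ± 1.72 CPM in wt_WT, a log2 fold change of 0.06 with an interval of -0.20 to 0.31 (edgeR adjusted p = 0.868). Any difference of pfl8 between a knockout and wt_WT thus had an interval inside 2-fold, though a p above the threshold does not show equal levels. For pfl9 the bounds were wider, from -0.41 to 0.61 in ntu1_KO (log2 fold change 0.10; edgeR adjusted p = 0.852) and from -0.27 to 0.78 in ntu2_KO (0.25; edgeR adjusted p = 0.665), both against wt_WT. Between ntu1_KO and ntu2_KO, the log2 fold change was 0.07 for pfl8 (interval -0.22 to 0.36; edgeR adjusted p = 0.955) and -0.16 for pfl9 (interval -0.69 to 0.38; edgeR adjusted p = 0.937).

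**Figure D2:**
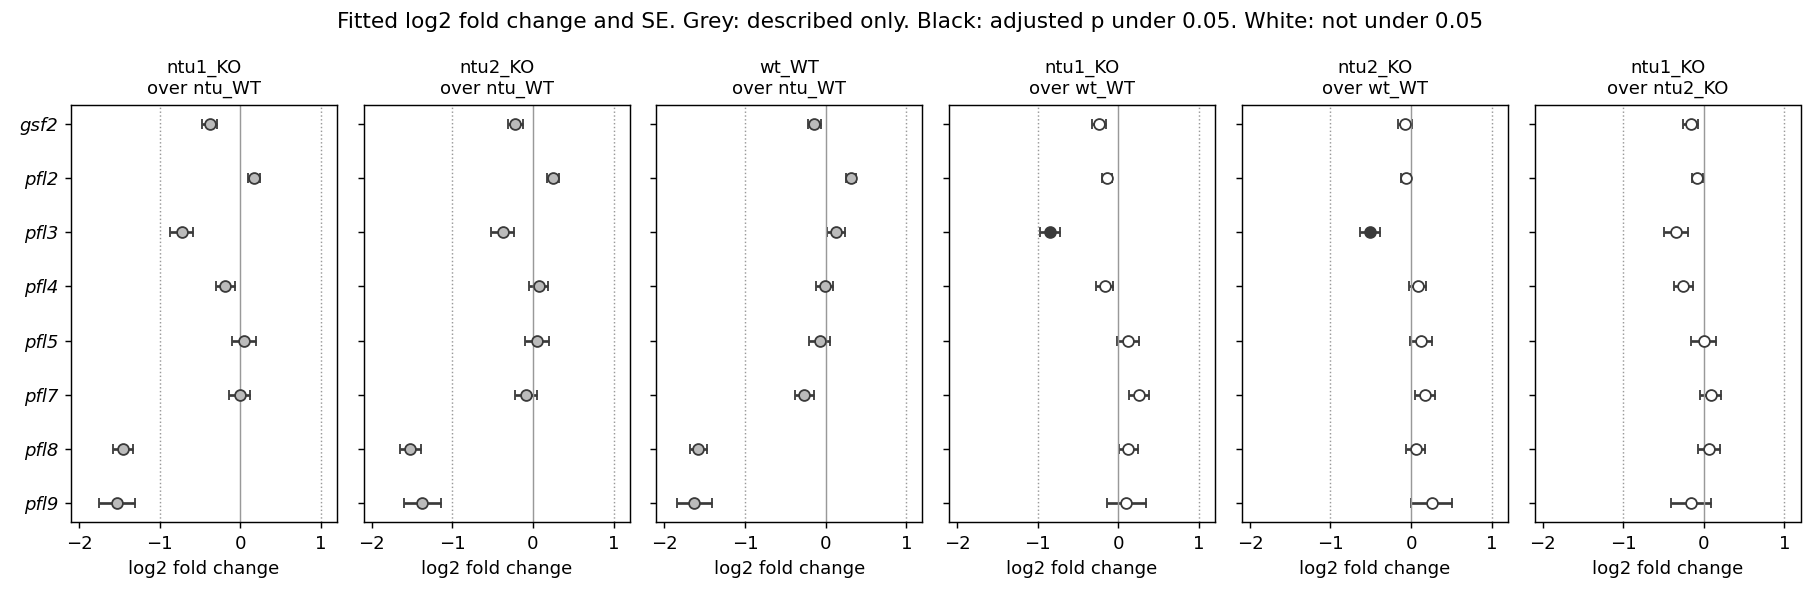
Fitted log2 fold change (points) and SE (bars) of 8 of the 9 genes in 6 comparisons, with dotted lines at 2-fold; pfl6, whose SE was 0.80 to 1.05, is not drawn. Grey points are the comparisons against ntu_WT, described only, where pfl8 and pfl9 lie between -1.63 and -1.37; in the other panels a black point passed an adjusted p of 0.05, which held for pfl3 against wt_WT, at -0.85 in ntu1_KO and -0.51 in ntu2_KO.

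pfl3 (SPBC947.04, chromosome II), another DIPSY family glycoprotein gene, was the member that fell in the knockouts relative to wt_WT. wt_WT differs from both knockouts in mating type, ade6 allele and the prefix of its sample titles as well as in the deletion, and these cannot be told apart. pfl3 had 10.8, 11.8 and 9.09 TPM in ntu1_KO, 17.9, 13.8 and 10.3 TPM in ntu2_KO, 20.4, 19.6 and 20.9 TPM in wt_WT, and 17.7, 18.3 and 16.4 TPM in ntu_WT. All ntu1_KO libraries were below all wild-type libraries, whereas ntu2_KO was below wt_WT and overlapped ntu_WT and ntu1_KO. Against wt_WT, pfl3 averaged 40.3 ± 4.92 CPM in ntu1_KO and 73.3 ± 2.08 CPM in wt_WT (SD, n = 3 each), which was 1.80-fold lower in the knockout (log2 fold change -0.85, 95% interval -1.11 to -0.59; edgeR adjusted p = 0.000491). In ntu2_KO it averaged 52.7 ± 13.0 CPM, against 73.3 ± 2.08 CPM in wt_WT, 1.43-fold lower (log2 fold change -0.51, interval -0.77 to -0.25; edgeR adjusted p = 0.0268).

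The ntu1_KO fall of pfl3 relative to wt_WT passed in 12 of 12 alternative settings, with adjusted p of 1.12e-08 to 0.0111 across edgeR, DESeq2 and limma. The ntu2_KO fall missed the threshold in 6 of 12, where its log2 fold change was -0.53 to -0.48, with adjusted p up to 0.116 in edgeR. Over all 12 alternatives the ntu2_KO fall ranged from -0.67 to -0.34. It did not pass without ntu2_KO replicate 2 (edgeR adjusted p = 0.0817) or without wt_WT replicate 1, 2 or 3 (0.09, 0.0867 and 0.116), nor with the 2 groups fitted alone (0.0788) or with limma (0.106). pfl3 was 1 of 9 members past the threshold with no fold minimum in each of these comparisons, beside 5.87% of all genes in ntu1_KO and 3.78% in ntu2_KO. With the 2-fold minimum, edgeR called 0 of 9 members against wt_WT, where 1% of genes were called for ntu1_KO and 0.424% for ntu2_KO. DESeq2 and limma called 0 members there too, and at an unadjusted p under 0.05 edgeR had 4 members in ntu1_KO and 1 in ntu2_KO.

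Against ntu_WT, the log2 fold change of pfl3 was -0.73 ± 0.14 in ntu1_KO, -0.38 ± 0.14 in ntu2_KO and 0.13 ± 0.11 in wt_WT (SE). Between the knockouts it was -0.35 (95% interval -0.67 to -0.02; edgeR adjusted p = 0.724), which did not pass. Replicate 3 of ntu2_KO was the lowest of its group, and without it the log2 fold change was -0.52 and passed (edgeR adjusted p = 0.0336). Leaving out that library moved the count over all genes as well, to 81 genes past the threshold with no fold minimum, against 6 with all libraries, so the pass of pfl3 came with a change across the table whose source was not tested. None of the 9 members was called between ntu1_KO and ntu2_KO, where edgeR called 6 genes, 0.103% of those tested. DESeq2 and limma also called 0, and pfl3 and pfl4 were the 2 members at an unadjusted p under 0.05 in edgeR.

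The adhesin genes pfl4, pfl5 and pfl7 varied little between groups. pfl4 (SPCC188.09c, chromosome III), annotated as a flocculin, had 13.7, 14.7 and 13.1 TPM in ntu1_KO, 18.1, 19.2 and 13.3 TPM in ntu2_KO, 15.8, 17.6 and 15.9 TPM in wt_WT, and 17.3, 14.2 and 15.35 TPM in ntu_WT. Its ntu1_KO libraries were below those of wt_WT and overlapped those of ntu_WT, and the difference from wt_WT did not pass (log2 fold change -0.17, 95% interval -0.39 to 0.05; edgeR adjusted p = 0.377). pfl5 (SPBC1289.15, chromosome II), a glycoprotein gene, ran from 4.99 to 7.70 TPM in ntu1_KO, 5.34 to 6.66 in ntu2_KO, 5.47 to 6.19 in wt_WT and 5.43 to 6.29 TPM in ntu_WT, so the 4 groups overlapped. pfl7 (SPBC359.04c, chromosome II), of the DIPSY family, ran from 24.6 to 34.95 CPM in ntu1_KO, 24.99 to 29.7 in ntu2_KO, 22.7 to 26.6 in wt_WT and 28.05 to 29.9 CPM in ntu_WT. Its knockout libraries overlapped those of both wild types, the wt_WT libraries were below those of ntu_WT, and its log2 fold change of 0.26 in ntu1_KO over wt_WT did not pass (interval 0.00 to 0.52; edgeR adjusted p = 0.245).

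pfl6 (SPAC977.07c, chromosome I), a glycoprotein gene, was at the edge of detection. It had 3.51, 17 and 3.5 counts in ntu1_KO, 7, 10.6 and 2.1 in ntu2_KO, 12.8, 12.1 and 0 in wt_WT, and 4.96, 0 and 7.83 counts in ntu_WT. Of its 31-base sequences, 97.5% occur elsewhere in the genome, mainly in SPBC1348.08c on chromosome II, so the authors' counting could split reads between the pair. The summed counts of both genes were 22, 26 and 6 in ntu1_KO, 7, 17 and 14 in ntu2_KO, 26, 33 and 32 in wt_WT, and 8, 14 and 13 in ntu_WT. These sums are not scaled for depth, and the wt_WT libraries were the deepest, so they cannot be compared between groups. The fitted log2 fold change of pfl6 relative to wt_WT was 0.85 ± 0.93 (SE) in ntu1_KO and 0.92 ± 0.98 in ntu2_KO, an error as large as the value (edgeR adjusted p = 0.645 and 0.697). Without ntu1_KO replicate 2 the ntu1_KO value was -0.07, so no difference in pfl6 was detectable at this depth.

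Gene structure within the family was uneven. The coding sequences in assembly ASM294v3 ran from 981 bases in pfl9 to 4692 bases in gsf2. The 4 genes with the longest coding sequences, gsf2, pfl2, pfl3 and pfl5, had 20.9% to 53.1% of their 31-base sequences repeated inside the gene itself, and the other 5 had 0%. The 2 genes that were high in ntu_WT, pfl8 and pfl9, were among the short ones without such repeats and had no 31-base sequence elsewhere in the genome. pfl6, pfl8 and pfl9 lie on chromosome I, less than 100 kb from one of its ends, and the other 6 members lie farther from any end.

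All members except pfl9 overlap annotated non-coding genes on the opposite strand, and the sources used here do not give the use of strand in counting. Of these non-coding genes 4 are in the tables. SPNCRNA.607, opposite pfl8, averaged 2.79 TPM in ntu1_KO, 2.54 in ntu2_KO, 3.76 in wt_WT and 3.02 TPM in ntu_WT, so that ntu_WT lay between the other groups. SPNCRNA.1379, opposite pfl3, had 0 counts in ntu1_KO, 0 in ntu2_KO, 3.2 in wt_WT and 9.97 in ntu_WT, summed over the 3 libraries of each. SPNCRNA.1379 was too low to test, and the other 3 tested, and none passed an adjusted p of 0.05 in edgeR in any of the 6 comparisons.

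The sum of the 9 genes was dominated by pfl2, which made up 79.2% of it in ntu1_KO, 79.2% in ntu2_KO, 79.8% in wt_WT and 64.6% in ntu_WT. The sum was 424 ± 4.33 TPM in ntu1_KO, 456 ± 62.8 in ntu2_KO, 488 ± 10.5 in wt_WT and 451 ± 17.3 TPM in ntu_WT (SD, n = 3 each). Without pfl2, a sum added after the values were seen, it was 88.0 ± 0.86 TPM in ntu1_KO, 95.1 ± 16.1 in ntu2_KO, 98.9 ± 2.84 in wt_WT and 159 ± 4.49 TPM in ntu_WT. Of that smaller sum, pfl8 made up 52.4% in ntu_WT and 30.4% to 35.6% in the other groups. The family was chosen for the difference of pfl8 and pfl9 from ntu_WT, so the higher sum in ntu_WT is no test of the family. The makeup of the sum differed too: pfl8 gave 7.39% of the sum of 9 in ntu1_KO, 6.61% in ntu2_KO, 6.15% in wt_WT and 18.6% in ntu_WT.

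**Figure D3:**
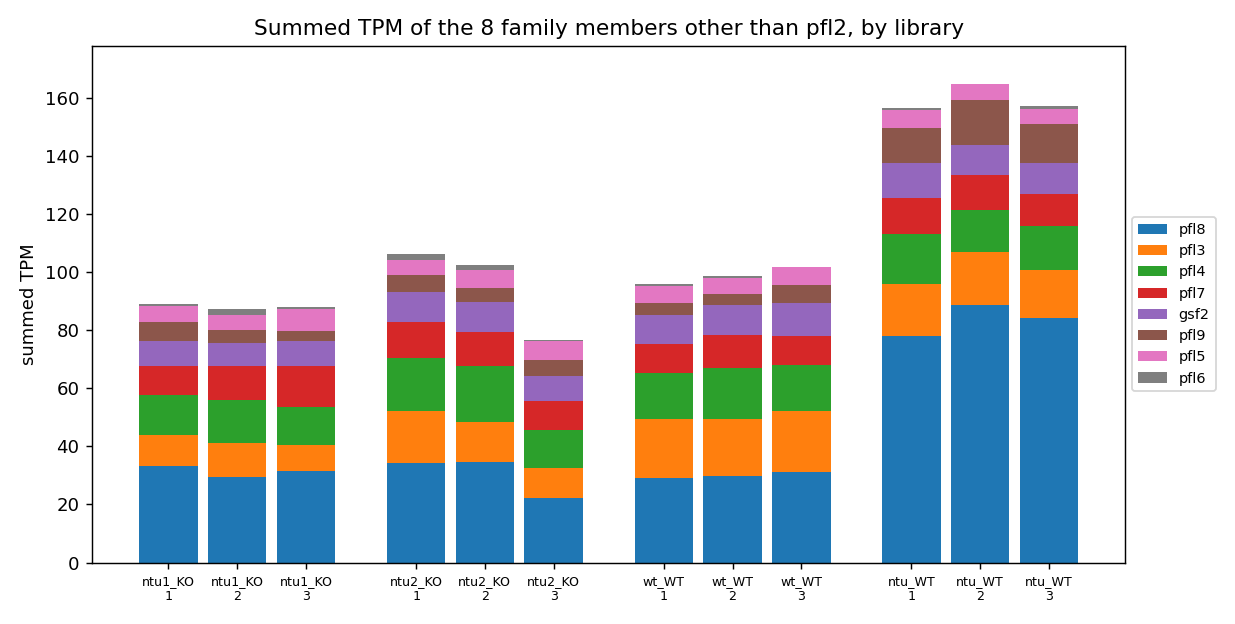
Stacked bars of the TPM of the 8 genes other than pfl2 in each of the 12 libraries, with the replicate number under the group name. The bars reach 87.2 to 88.9 TPM in ntu1_KO, 76.6 to 106.2 in ntu2_KO, 96.0 to 101.7 in wt_WT and 157 to 165 TPM in ntu_WT, and the pfl8 segment makes up 52.4% of the ntu_WT bars.

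Across all 9 members, the median log2 fold change was -0.19 in ntu1_KO, -0.09 in ntu2_KO and -0.07 in wt_WT relative to ntu_WT, beside 0.00 over all genes tested in each. Against wt_WT the members' median was 0.10 in ntu1_KO and 0.08 in ntu2_KO, and the median over all genes was 0.00 in both. CPM of all 3 ntu1_KO libraries were below all 3 wt_WT libraries for 4 members, pfl2, pfl3, gsf2 and pfl4, beside 16.2% of all genes in that direction. For ntu2_KO the count was 1, pfl3, beside 11.4% of genes. No member had all 6 knockout libraries below all 6 wild-type libraries, a pattern that 26 genes, 0.441%, had.

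Likeness of pattern was measured as the root mean square difference of centred log2(CPM + 0.5) over the 12 libraries. Of all genes tested outside the family, isp4, an oligopeptide transporter gene, was the most like pfl8 (difference 0.152) and also the most like pfl9 (0.262). isp4 averaged 30.0 CPM in ntu1_KO, 34.8 in ntu2_KO, 28.6 in wt_WT and 89.2 CPM in ntu_WT. The difference between pfl8 and pfl9 themselves was 0.283, smaller than that of either to any gene but isp4. The family was chosen for a difference that pfl8 and pfl9 share in these libraries. Their closeness is therefore no test, and nothing is read from it. yhb1, a nitric oxide dioxygenase gene, came next for both, at 0.293 from pfl8 and 0.382 from pfl9, and averaged 82.9 CPM in ntu1_KO, 71.1 in ntu2_KO, 102.2 in wt_WT and 188.2 CPM in ntu_WT. The last gene named for pfl8 was SPBP8B7.32 (0.377) and for pfl9 SPNCRNA.1442 (0.395). For pfl6, whose counts were near the floor, the most like were mrx11 (0.569), SPNCRNA.1134 (0.601) and SPCC18B5.02c (0.605).

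Of the 18 protein-coding genes next to a member on its chromosome, 14 could be tested. Over the 6 comparisons edgeR called 0.103% to 1.03% of all genes, and 0 of these 14 neighbours in any. At an unadjusted p under 0.05 there were 0 to 6 of them, and DESeq2 and limma each called 1, the retrotransposon gene Tf2-11 beside pfl5, in wt_WT relative to ntu_WT. isp3 and pdc101, on either side of pfl8, had log2 fold changes against ntu_WT of -0.38 and -0.03 in ntu1_KO, -0.24 and 0.00 in ntu2_KO, and -0.28 and 0.12 in wt_WT, and none passed in edgeR. For isp3 all 3 ntu_WT libraries were above the other 9 in CPM, the order that pfl8 and pfl9 had, beside 1.44% of all genes. isp3 averaged 14.85 CPM in ntu1_KO, 16.3 in ntu2_KO, 15.85 in wt_WT and 19.2 CPM in ntu_WT. pdc101 overlapped ntu_WT in each group. A link of isp3 to pfl8 was not tested. The neighbour furthest from 0 in ntu1_KO relative to ntu_WT was SPAPB15E9.02c, beside pfl2 (log2 fold change -2.34, edgeR adjusted p = 0.0889). SPAPB15E9.02c lay near the floor, with means of 0.419 CPM in ntu1_KO, 0.888 in ntu2_KO, 1.33 in wt_WT and 2.31 CPM in ntu_WT. Its 3 ntu_WT libraries were also above the other 9. Both genes beside pfl9 were too low to test. At no fold minimum, abc3 and aat1, the transporter genes beside pfl7, passed against wt_WT, beside 5.87% of all genes in ntu1_KO and 3.78% in ntu2_KO. abc3 was lower in ntu1_KO (log2 fold change -0.36; edgeR adjusted p = 0.015) and in ntu2_KO (-0.46; 0.00418), and aat1 was higher in ntu1_KO (0.38; edgeR adjusted p = 0.00152) and in ntu2_KO (0.25; 0.0391). abc3 was also higher in wt_WT than in ntu_WT (0.31; edgeR adjusted p = 0.0271), where 8.24% of all genes passed.

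The list of regulators of flocculation, like the adhesin and wall lists below, was chosen with earlier results of these data known. Its passes and p-values are therefore a description and no independent test. Of 20 listed regulators, 19 were measured, rfl1 being unmatched. By edgeR, DESeq2 or limma 0 of 19 were called in any comparison, where edgeR called 0.103% to 1.03% of all genes. At an unadjusted p under 0.05 edgeR had 1 to 5 of the 19. With no fold minimum, 0 of them passed in ntu1_KO (beside 0.74% of all genes), 1 in ntu2_KO (0.758%) and 2 in wt_WT (8.24%), each relative to ntu_WT. mbx2, which encodes the activator Mbx2, was the regulator furthest from 0 in both knockouts relative to ntu_WT. It had 23.5, 21.0 and 21.5 CPM in ntu1_KO, 22.7, 21.5 and 20.4 CPM in ntu2_KO, 20.2, 24.3 and 25.8 CPM in wt_WT, and 30.5, 32.9 and 30.3 CPM in ntu_WT. All 3 ntu_WT libraries were above the other 9, as for pfl8 and pfl9 but for no other member. gsf2 and pfl2 were among the members without that order, and mbx2 was 1 of the 85 genes with it. With no fold minimum and relative to ntu_WT, mbx2 passed in ntu2_KO (log2 fold change -0.54; edgeR adjusted p = 0.0498) and in wt_WT (-0.42; 0.0254). In ntu1_KO its log2 fold change was of like size (-0.51, 95% interval -0.76 to -0.26) and missed the threshold (edgeR adjusted p = 0.0649). All of these lay near the threshold: 6 of 13 alternatives passed for ntu2_KO, 7 of 12 for wt_WT and 2 of 13 for ntu1_KO. Against wt_WT, mbx2 had log2 fold changes of -0.09 in ntu1_KO (edgeR adjusted p = 0.688) and -0.13 in ntu2_KO (0.649).

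Among the other regulators, named after their values were seen, 2 passed with no fold minimum. sre2, a gene of the sterol regulatory element binding protein family, rose in wt_WT relative to ntu_WT (log2 fold change 0.44; edgeR adjusted p = 0.00354), in 12 of 12 alternatives as well. It had 117, 97.1 and 100 CPM in ntu1_KO, 121, 126 and 103 CPM in ntu2_KO, 115, 110 and 123.4 CPM in wt_WT, and 95.9, 83.1 and 79.0 CPM in ntu_WT. ldb1 rose in ntu2_KO relative to wt_WT (0.38; edgeR adjusted p = 0.0139), in 8 of 12 alternatives. cbf12, which encodes a further activator, was the furthest from 0 in ntu1_KO relative to wt_WT (0.27; edgeR adjusted p = 0.256), and ldb1 between ntu1_KO and ntu2_KO (-0.23; 0.709). tup12, the regulator gene with the highest mean TPM and a corepressor subunit, had log2 fold changes of -0.06 to 0.04 over the 6 comparisons. The list's median was -0.01 in ntu1_KO, 0.02 in ntu2_KO and -0.05 in wt_WT relative to ntu_WT, and 0.03 in ntu1_KO and 0.05 in ntu2_KO relative to wt_WT.

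Of 5 other predicted adhesin genes, a list chosen with earlier results of these data known, 0 were called by edgeR, DESeq2 or limma. Over the comparisons edgeR called 0.103% to 1.03% of all genes. At an unadjusted p under 0.05 edgeR had 0 or 1 of the 5. SPBPJ4664.02 passed with no fold minimum in 3 comparisons, which is a description and no independent test. It had 56.6, 65.2 and 70.3 CPM in ntu1_KO, 85.9, 70.1 and 68.3 CPM in ntu2_KO, 77.3, 81.7 and 84.4 CPM in wt_WT, and 56.4, 45.5 and 46.5 CPM in ntu_WT. Here the 3 ntu_WT libraries were below the other 9, the reverse of pfl8 and pfl9, an order that 106 genes, 1.8%, had. SPBPJ4664.02 rose in ntu2_KO (log2 fold change 0.59; edgeR adjusted p = 0.0198) and in wt_WT (0.72; 6.21e-05) relative to ntu_WT, and fell in ntu1_KO relative to wt_WT (-0.34; edgeR adjusted p = 0.0372). The fall passed in 6 of 12 alternatives. Beside these passes, 0.758% of all genes passed in ntu2_KO and 8.24% in wt_WT relative to ntu_WT, and 5.87% in ntu1_KO relative to wt_WT. Of the other 4, mam3 and map4, which encode mating agglutinins, had 46.5 to 61.4 CPM and 18.4 to 27.8 CPM over the 12 libraries. SPAPB2C8.01, the highest of the list in mean TPM, had log2 fold changes of -0.10 to 0.15, and SPBC1348.08c, the near copy of pfl6, was often the furthest from 0 with an SE of 0.63 to 0.75, as in wt_WT relative to ntu_WT (0.81). None of these 4 passed.

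**Figure D4:**
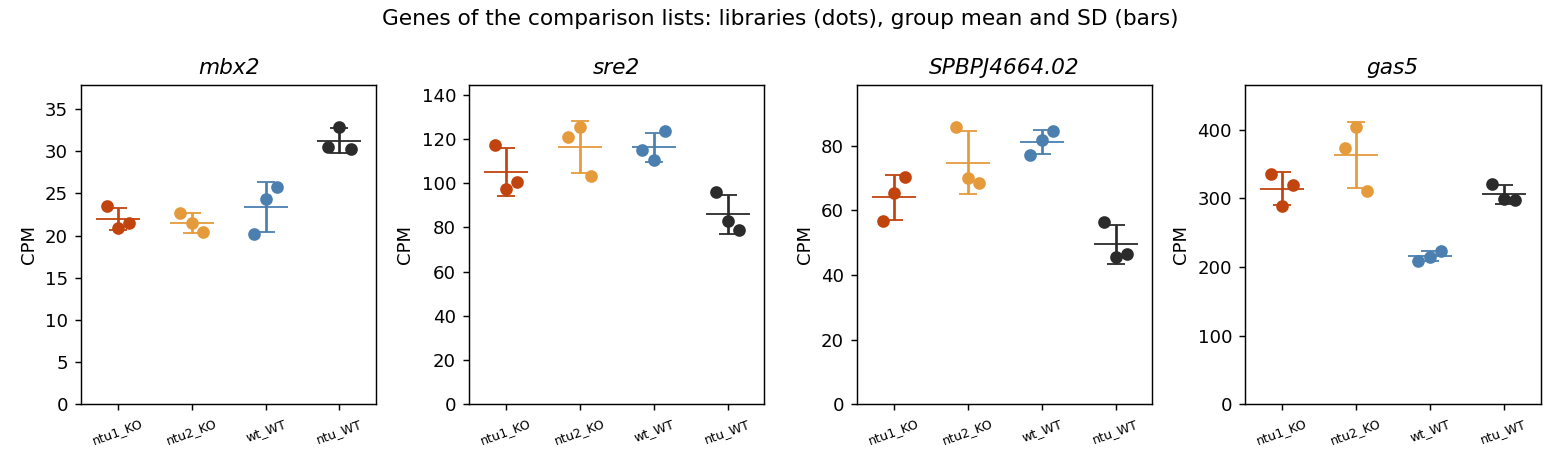
CPM (linear axis from 0, a separate scale for each gene) of the regulator genes mbx2 and sre2, the adhesin gene SPBPJ4664.02 and the wall enzyme gene gas5 in the 3 libraries of each group; dots are libraries, and bars are the group mean and SD. ntu_WT lies above the other groups for mbx2 (30.3 to 32.9 CPM) and below them for sre2 and SPBPJ4664.02, and wt_WT lies lowest for gas5 (209 to 223 CPM).

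Of 19 cell wall synthesis and remodelling genes, which build the wall that flocculins are anchored in, 0 were called in any comparison by edgeR, DESeq2 or limma. Over the comparisons edgeR called 0.103% to 1.03% of all genes. At an unadjusted p under 0.05 edgeR had 2 to 10 of the 19. This list too was chosen with earlier results of these data known, so its passes are no independent test. With no fold minimum and relative to wt_WT, 6 rose in ntu2_KO (gas5, exg1, ecm33, gas1, bgs1 and ags1) and none fell, beside 3.78% of all genes passing. In ntu1_KO gas5 and ags1 rose and gas2 fell, beside 5.87% of all genes. Relative to ntu_WT, pvg1 rose in ntu1_KO, 0 of 19 passed in ntu2_KO, and in wt_WT pvg1 rose while gas5, ags1 and bgs1 fell, beside 8.24% of all genes. Between the knockouts 0 passed. Several of these were near the threshold: in ntu2_KO relative to wt_WT, exg1 and ecm33 passed in 11 of 12 alternatives, gas1 in 9, and bgs1 and ags1 in 6. In ntu1_KO relative to wt_WT, ags1 passed in 5 of 12 and gas2 in 3, and in wt_WT relative to ntu_WT, ags1 passed in 11 of 12, bgs1 in 10 and pvg1 in 6. These genes encode glucan synthases (ags1, bgs1), glucanosyltransferases (gas1, gas2, gas5) and a glucanase (exg1), and they were named after their values were seen. gas5, the furthest from 0 in both knockouts relative to wt_WT, had 335, 289 and 319 CPM in ntu1_KO, 373, 404 and 310 CPM in ntu2_KO, 209, 214 and 223 CPM in wt_WT, and 321, 299 and 297 CPM in ntu_WT. It was higher than in wt_WT in ntu1_KO (log2 fold change 0.54; edgeR adjusted p = 0.000592) and in ntu2_KO (0.75; 3.04e-05), and lower in wt_WT than in ntu_WT (-0.50; edgeR adjusted p = 0.000782), each in 12 of 12 alternatives. For this gene wt_WT and not ntu_WT stood apart, unlike pfl8 and pfl9. wt_WT differs from the other groups in mating type, ade6 allele and title prefix, which cannot be told apart.

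The wall gene with the highest mean TPM, ecm33, which encodes a wall protein held by a lipid anchor, rose in ntu2_KO relative to wt_WT (log2 fold change 0.31; edgeR adjusted p = 0.00688) and did not pass in ntu1_KO (0.15; 0.173). pvg1, which encodes the enzyme that adds pyruvate to galactose of the wall, was the list's gene that rose in ntu1_KO relative to ntu_WT (0.32; edgeR adjusted p = 0.0314), in 7 of 13 alternatives. SPAC4H3.03c was the furthest from 0 relative to ntu_WT, at -0.82 in ntu1_KO, -0.73 in ntu2_KO and -0.53 in wt_WT, with an SE of 0.55 to 0.72 and no pass. The list's median log2 fold change was 0.02 in ntu1_KO, 0.12 in ntu2_KO and -0.07 in wt_WT relative to ntu_WT, and 0.10 in ntu1_KO and 0.16 in ntu2_KO relative to wt_WT.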

How the data were processed

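Estimated counts, of which 91.2% of the non-zero values are not whole, and TPM values for the same genes and libraries were deposited by the authors as separate tables. The submitters' processing notes name Salmon 1.9.0 and the build ASM294v2, without the role of either. Libraries were made with the Illumina Stranded mRNA Prep, per the labels' protocols. Groups and replicate numbers came from the sample titles. Of 6936 identifiers, 6743 matched assembly ASM294v3, which was used for names, neighbours and features only, so no coordinates or sequences are printed.

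Counts were rounded, changing no library total by more than 0.0027%, and tested in R 4.3.3 with edgeR 4.0.16 (quasi-likelihood F-test, TMM scaling, robust fit, filterByExpr with its minimum set to 10 counts). All 9 members passed the filter. Comparisons among ntu1_KO, ntu2_KO and ntu_WT used those 9 libraries (5808 genes), and those with wt_WT used all 12 (5899 genes). The sample titles of wt_WT start with wt and those of the other groups with ntu, so wt_WT entered only the comparisons that need it. Whether the prefix marks a separate experiment is not known here. P-values were Benjamini-Hochberg adjusted over all genes tested, and a call also needed a 2-fold change. SE is the log2 fold change divided by the square root of F. DESeq2 1.42.0, limma 3.58.1 on log2(TPM + 1), other scaling and filters, and each library left out in turn were alternatives. The test was tried on simulated data. Libraries of 1 group differed beyond counting noise, so none was merged as a repeat of another, which does not show that they are separate cultures.

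Members are named whatever their values. Of each list, called genes are named, or else the gene furthest from 0 and the one highest in TPM, and likeness takes the 3 nearest genes for members whose highest group mean is at least 2 times the lowest. Members and lists were chosen with earlier results of these data known.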

Additional observations from a re-analysis of the deposited data

How the results depend on the processing

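No value that passed its test changed direction in any alternative run, and 649 of 665 values of the members kept their side of the threshold or moved by less than the spread between replicates (1 SD). These values include the contrasts against ntu_WT on which the family was chosen, and many that did not pass in the main fit. Their share is therefore no sign of stability. The pass of pfl3 in ntu2_KO relative to wt_WT was lost in 6 of 12 alternatives. With each library left out, the count of members meeting the call rule against ntu_WT was 2 for ntu1_KO and for wt_WT and 1 to 2 for ntu2_KO, where pfl9 without ntu_WT replicate 2 kept a log2 fold change of -1.29 and missed the rule on its adjusted p. The family was chosen on these contrasts, so those counts are no sign of stability. The count was 0 in each leave-one-out fit of the other 3 comparisons. With no fold minimum the count against wt_WT was 1 for ntu1_KO and 1 for ntu2_KO, pfl3 in both. The replicate numbers did not pair the libraries, since same-numbered libraries correlated at -0.165 to 0.118, and with a replicate block the count of members called was again 2 in each comparison with ntu_WT and 0 in the others. With the 2 compared groups fitted alone, gsf2 and pfl2 passed in ntu1_KO relative to wt_WT with no fold minimum (edgeR adjusted p = 0.0422 and 0.0248). Over all alternatives, the log2 fold change against ntu_WT of pfl8 was -1.51 to -1.39 in ntu1_KO, -1.66 to -1.34 in ntu2_KO and -1.64 to -1.45 in wt_WT, and that of pfl9 was -1.79 to -1.35 in ntu1_KO, -1.46 to -1.20 in ntu2_KO and -1.89 to -1.39 in wt_WT. pfl6 had 0 to 17 counts a library and can share reads with SPBC1348.08c.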
